A study of Homo sapiens with 9 samples.

Results

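The comparison described here is that of HUES9 cultures differentiated for 13 days with stem cells collected at day 1. It takes 6 of the series' 9 RNA sequencing libraries, namely the 3 collected on day 13 from cultures that received 10 µM RP22 and the 3 collected on day 1 with no agent, across 27730 gene symbols. HUES9 is a human embryonic stem cell line, used at passages 44 to 46 and grown on mitomycin-treated mouse embryonic fibroblasts with FGF2. Cells were pretreated with a Stemolecule compound that the labels do not name further. They were then spun into embryoid bodies (aggregates in which stem cells differentiate) at 10000 cells per well without FGF2, held in suspension for 5 days and plated on Matrigel. RP22 is an inactive analog of AA147, a small molecule that activates ATF6, and the other 3 libraries come from day 13 cultures with AA147. The labels describe 3 independent experiments. They also say that cultures with the solvent DMSO did not differ detectably from those with RP22, but DMSO libraries were not analysed here. The effects of the days in culture and of RP22 itself therefore cannot be told apart. The labels do not say whether the day 1 cells had begun to aggregate. All the cells come from 1 line, and reads from mouse feeder cells were not separable in the tables.

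Embryonic stem cells are held in an undifferentiated state by a network of transcription factors around POU5F1 (OCT4), NANOG and SOX2, together with FGF and activin or nodal signals. When they aggregate without FGF2, this network is shut down and the cells enter the lineages of the embryo, which are ectoderm, mesoderm and endoderm, and in human cells also lineages of the placenta and amnion. ATF6 is a membrane protein of the endoplasmic reticulum that is cleaved when unfolded proteins accumulate and then switches on genes for chaperones.

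The 6 libraries held 9294899 to 10118267 reads, so that 1 read is worth about 0.1 CPM (reads scaled to a common library size). Levels below are in CPM with the TMM factors of library size. Fold changes are log2 values of RP22 over day 1, given with an approximate standard error (SE, n = 3 libraries per group). This SE is the absolute log2 fold change divided by the square root of its F statistic in edgeR. It is not computed directly from the spread of the libraries. Library totals alone gave a median log2 fold change of 0.12 over all genes, against 0.02 with TMM. The first principal component of log2 CPM held 91.9% of the variance and separated the groups. The second held 4.27% and set RP22 replicate 1, at 30.8, apart from RP22 replicates 2 and 3, at -16.9 and -16.2. Genes with at least 1 read numbered 16973 to 17091 with RP22 and 16113 to 16199 at day 1. After thinning every library to 9223039 reads the ranges were 16939 to 17019 and 16107 to 16131 (exact two-sided permutation p = 0.1, the smallest that 3 against 3 libraries can give). The tables hold almost no reads for short and noncoding RNA, since 0 of 1478 microRNA symbols and 4.38% of 2373 long noncoding symbols had a read, against 92.9% of 18980 protein-coding symbols. H19 is listed at 0 in every library and is not interpreted.

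The day 1 libraries carried the defining markers of their label. All 6 of these (POU5F1, NANOG, SOX2, LIN28A, TDGF1 and DNMT3B) were present in each day 1 library, for example NANOG at 16.9, 29.6 and 35.9 CPM and the methyltransferase DNMT3B at 2505, 2645 and 2751 CPM. All 6 were lower in each RP22 library than in each day 1 library. Among the 14559 genes tested, the groups did not overlap in 76.9%, in either direction, and 35.2% were called lower.

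Most of the measured transcriptome differed between day 13 with RP22 and day 1. Of 14559 genes that passed the count filter, 10462 (71.9%) differed between the groups, 5333 (36.6%) higher with RP22 and 5129 (35.2%) lower (edgeR quasi-likelihood F test, Benjamini-Hochberg adjusted p below 0.05). The rises were larger than the falls. The median log2 fold change was 1.36 among genes that rose and -0.80 among those that fell. A change of at least 2-fold was called upward for 3352 genes (23.0%) and downward for 1821 (12.5%), and one of at least 8-fold upward for 1225 (8.41%) and downward for 150 (1.03%). The groups did not overlap in 11194 genes (76.9%). No read at day 1 and at least 10 reads in each RP22 library were found for 144 symbols, of which 139 were tested and 137 of these are among the genes called higher. The reverse was found for 5 symbols. In each gene reported below as risen or fallen the libraries of the groups did not overlap, except in HES5. In bulk RNA, a lower level can mean fewer cells of a type or less RNA per cell, and these cannot be told apart.

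**Figure D1:**
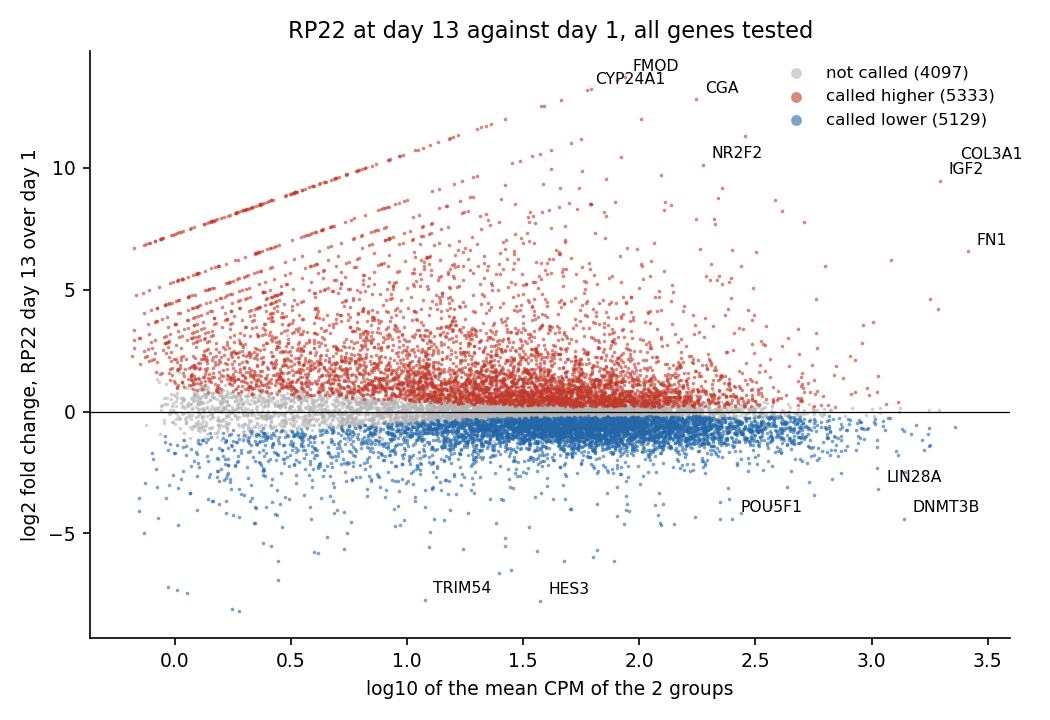
Log2 fold change (RP22 at day 13 over day 1, vertical axis) of the 14559 genes tested against the log10 of the mean CPM of both groups (horizontal axis). Red points are the 5333 genes called higher, blue points the 5129 called lower and grey points the 4097 not called. The straight rows of red points in the upper left are genes with 0, 1 or a few reads at day 1, whose fitted fold change is set mainly by their level with RP22.

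Genes whose groups did not overlap and whose mean reached 5 CPM in the higher group were ranked by fold change, and the 12 largest rises had no read or 1 read at day 1. CYP24A1, the enzyme that breaks down active vitamin D, had no read in the 3 day 1 libraries and 145, 97.7 and 116 CPM with RP22. It was at least 1101-fold higher against a floor of 3 reads over the 3 day 1 libraries (edgeR adjusted p = 7.5e-06). The calcium-binding protein S100A9, with 248, 101 and 131 CPM, was at least 1469-fold higher (edgeR adjusted p = 0.001). RSPO3, a secreted enhancer of WNT signalling, stood at 51.1, 87.4 and 93.6 CPM and was at least 722-fold higher (edgeR adjusted p = 0.00013). In these 3 genes every RP22 library held reads and no day 1 library held any. MMRN1, which encodes the platelet and endothelial protein multimerin, was at least 707-fold higher with 32.1, 102 and 93.0 CPM, the membrane mucin MUC15 at least 427-fold with 43.96, 41.9 and 52.0 CPM, and FGB, the fibrinogen beta chain, at least 405-fold with 51.0, 32.4 and 47.7 CPM. Their edgeR adjusted p was 0.0026, 2.2e-06 and 1.3e-05. NEUROD1, a transcription factor of neurons, was at least 493-fold higher and was low in RP22 replicate 1, with 13.9, 77.5 and 66.5 CPM (edgeR adjusted p = 0.0079).

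Others among the 12 were carried unequally by the RP22 libraries. The matrix proteoglycan FMOD had the largest fitted change, with no read at day 1 and 426, 36.2 and 55.6 CPM with RP22, where replicate 1 held 4082 of 5032 reads. Its log2 fold change of 13.70 ± 3.17 (edgeR adjusted p = 0.022) was 11.79 without RP22 replicate 1. The FMOD call ended without day 1 replicate 1 (adjusted p = 0.07), with all 9 libraries in the fit (0.052), with no count filter (0.084) and with limma-voom (0.11). RGS4, a regulator of G protein signalling, had 253, 56.4 and 62.3 CPM and was at least 1121-fold higher. The log2 fold change was 13.22 ± 2.11 (edgeR adjusted p = 0.0074), and 12.16 without RP22 replicate 1. EMX2, a transcription factor of the forebrain and the urogenital system, ran the other way with 10.3, 122 and 144 CPM. It was at least 870.4-fold higher (edgeR adjusted p = 0.019), a call that ended without day 1 replicate 1 (0.061), with no count filter (0.075) and with limma-voom (0.14). The remaining 2 of the 12, CGA and DCN, are described with the trophoblast and the matrix.

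The 12 largest falls by the same rule left few reads with RP22. HES3, a basic helix-loop-helix repressor of the HES family, had 64.8, 72.8 and 84.8 CPM at day 1 and 0, 0.204 and 0.747 CPM with RP22, where it kept 10 reads in all. This log2 fold change of -7.75 ± 0.416 (edgeR adjusted p = 6.3e-06) was -9.31 without RP22 replicate 3, which held 8 of the 10 reads. TRIM54, a microtubule-associated ring finger protein, kept 3 reads with RP22 against 653, a ratio of 236 (95% counting interval 80.4 to 1147, fitted log2 fold change -7.72, and -8.51 without RP22 replicate 3). IDO1, an enzyme of tryptophan breakdown, had 41.0, 40.2 and 67.4 CPM at day 1 and 0, 0.510 and 0.934 CPM with RP22. Its log2 fold change was -6.60 ± 0.535 (edgeR adjusted p = 5.3e-05), or -7.51 without RP22 replicate 3. PPP1R1B (log2 fold change -6.51 ± 0.421), an inhibitor of protein phosphatase, the adrenergic receptor ADRA2A (-6.14 ± 0.336) and LECT1 (-5.98 ± 0.197), which encodes the cartilage protein chondromodulin, moved in the same direction. Their edgeR adjusted p was 1.5e-05, 9.4e-06 and 3.1e-07. LECT1 for instance had 120.5, 117 and 135 CPM at day 1 and 1.46, 1.53 and 2.80 CPM with RP22. Among genes with no read in any RP22 library, CCDC172 was at least 37.6-fold lower, the cholesterol 25-hydroxylase CH25H at least 34.7-fold and the semenogelin SEMG1 at least 22.4-fold lower against the same floor of 3 reads.

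Pluripotency factors fell almost throughout. Of 17 tested members of the pluripotency list, 15 fell and 0 rose, against 35.2% lower and 36.6% higher among all genes tested, and the median log2 fold change was -3.17. Without RP22 replicate 1 the same numbers, 15 and 0, were called. POU5F1, the core factor OCT4, had 376, 539 and 528 CPM at day 1 and 8.67, 26.4 and 33.3 CPM with RP22. No RP22 library came near the day 1 range, and RP22 replicate 1 was the lowest. The log2 fold change was -4.39 ± 0.494 (edgeR adjusted p = 0.00043), although reads of POU5F1 and its near-identical pseudogenes may be shared in the counting. SOX2, which is also a neural progenitor factor, went from 724, 794 and 814 CPM to 24.3, 119 and 131 CPM with RP22, again lowest in RP22 replicate 1 (-3.09 ± 0.609, edgeR adjusted p = 0.0049). LIN28A, an RNA-binding protein that blocks maturation of let-7 microRNAs, went from 2042, 1705 and 1999 CPM to 183, 230.1 and 228 CPM with RP22 (-3.17 ± 0.123, edgeR adjusted p = 6.2e-07).

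The levels that remained differed between the factors. DPPA4 (-3.41 ± 0.156), L1TD1 (-2.54 ± 0.102) and SALL4 (-2.43 ± 0.155), genes used as markers of this state, fell, as did ZSCAN10 (-4.61 ± 0.435), a zinc finger partner of the core factors, each with an edgeR adjusted p of 0.00018 or below. PRDM14, a repressor of differentiation genes, went from 108, 155 and 126 CPM to 0.627, 2.04 and 4.67 CPM with RP22. The log2 fold change of -5.69 ± 0.482 (edgeR adjusted p = 0.00011) was -6.58 without RP22 replicate 3. UTF1, a chromatin protein of stem cells, kept 2 reads, both in RP22 replicate 3, against 153 at day 1, a ratio of 82.9 (95% counting interval 22.6 to 691, fitted log2 fold change -6.12, and -8.70 without that library). LIN28B, the relative of LIN28A, fell less, from 305, 231 and 262 CPM to 128, 147 and 150.4 CPM with RP22 (-0.91 ± 0.115, edgeR adjusted p = 0.00017). Summed over the list, the RP22 libraries held 808, 1137 and 1228 CPM and the day 1 libraries 9193, 9533 and 10185 CPM. The 2 tested members that were not called were GDF3, a TGF-beta family ligand, with 2.40, 3.81 and 4.79 CPM at day 1 and 1.25, 3.57 and 7.29 CPM with RP22, and FGF4, with 1.15, 0.871 and 0.446 CPM at day 1 and 0, 1.02 and 1.96 CPM with RP22. In both genes the groups overlapped. Without replicate 1 of both groups, a fit on 2 libraries per group, FGF4 was called higher (1.17, adjusted p = 0.037).

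**Figure D2:**
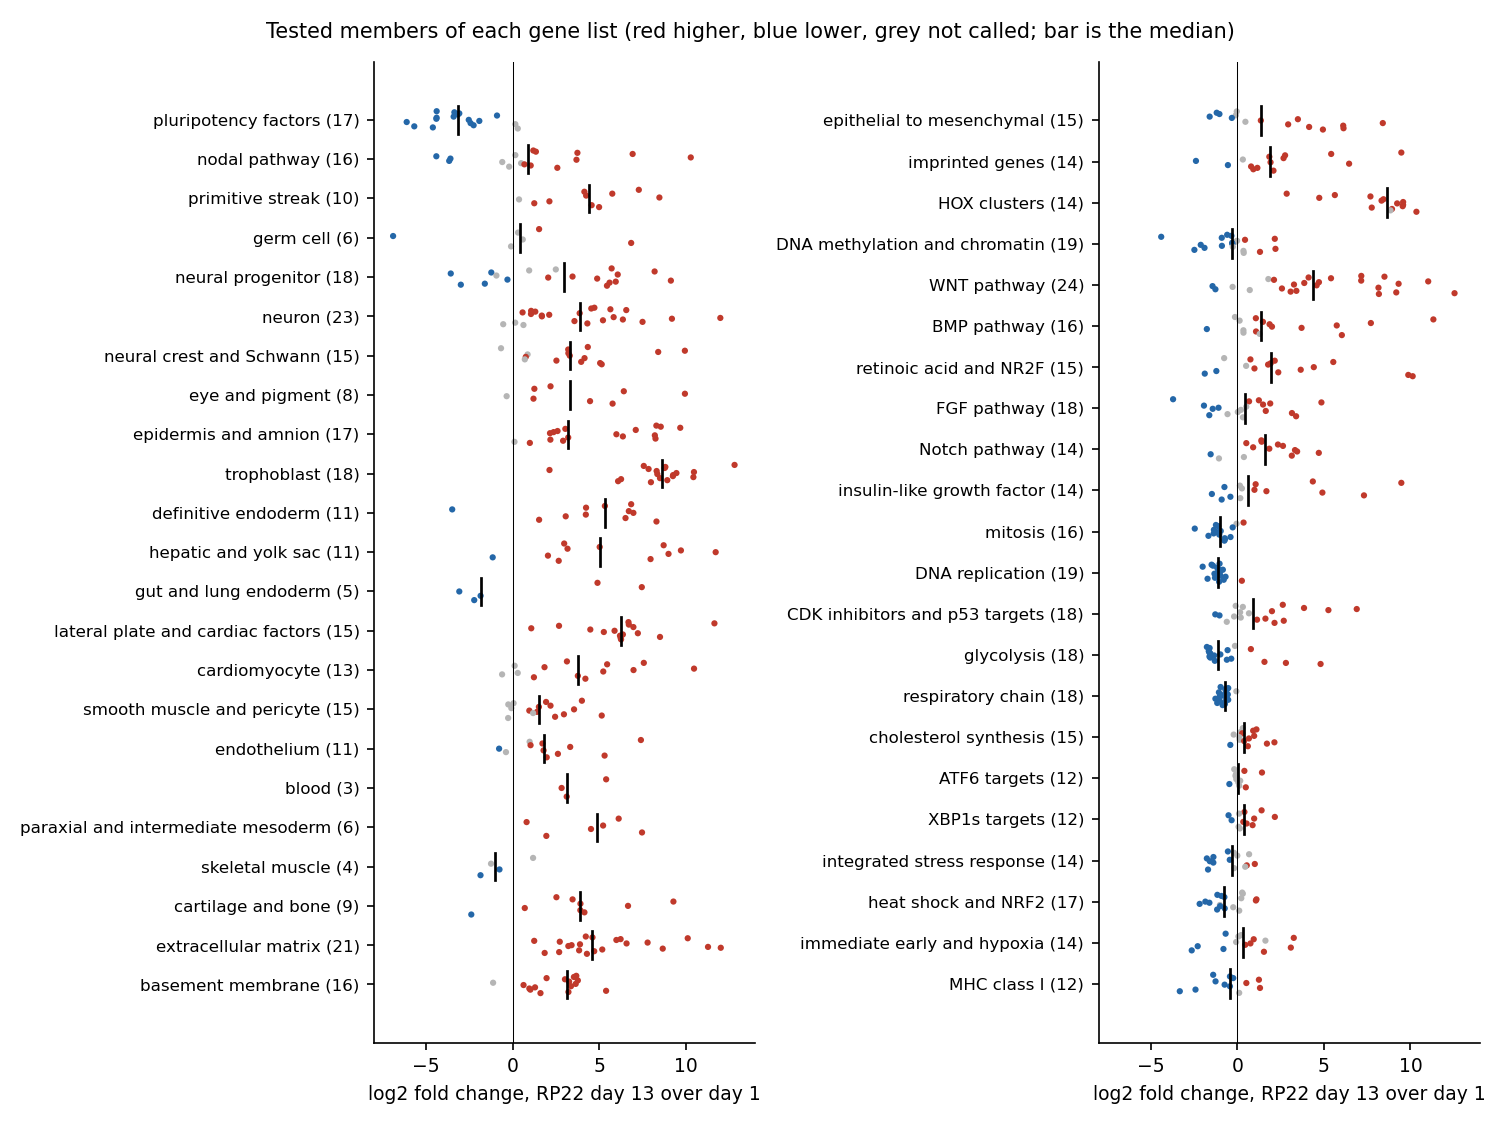
Log2 fold change (RP22 at day 13 over day 1, horizontal axis) of each tested member of the 45 gene lists, with the number tested after each list's name. Red points were called higher, blue points lower and grey points were not called, and each black bar is the list's median, for example -3.17 for pluripotency factors and 8.64 for trophoblast.

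Nodal pathway genes moved in opposite directions. Of 16 tested, 9 rose and 3 fell (36.6% and 35.2% among all genes). The fallers were the coreceptor TDGF1, at 308, 456 and 507 CPM at day 1 and 6.89, 20.9 and 31.6 CPM with RP22 (-4.41 ± 0.547, edgeR adjusted p = 0.00066), the nuclear factor FOXH1 (-3.60 ± 0.337, adjusted p = 0.00011) and the activin subunit INHBB (-3.67 ± 0.570, adjusted p = 0.00067, or -4.58 without RP22 replicate 3). Among the risers were the secreted nodal antagonists CER1 (0.104, 0.109 and 0.223 CPM at day 1, 9.29, 17.8 and 30.0 CPM with RP22) and LEFTY2 (0.730, 0.544 and 1.67 CPM at day 1, 9.92, 15.9 and 13.6 CPM with RP22). Their log2 fold changes were 6.92 ± 0.664 and 3.74 ± 0.391, with edgeR adjusted p of 6.6e-05 and 6.2e-05, and that of LEFTY2 was 4.33 without day 1 replicate 3. The activin subunit INHBA rose as well, from 0.625, 0.871 and 1.11 CPM to 12.01, 10.3 and 11.5 CPM with RP22 (3.68 ± 0.264, edgeR adjusted p = 9.5e-06).

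Genes of the primitive streak, the site where mesoderm and endoderm form, rose. Of 10 tested members 9 rose and 0 fell (36.6% and 35.2% of all genes tested), with a median of 4.40. Without RP22 replicate 1, 9 rose, and 8 to 9 did with any single library left out. T (brachyury) had 1 read at day 1 and 42, 84 and 105 reads with RP22 (ratio 213, 95% counting interval 37.9 to 8452, fitted log2 fold change 7.28, and 9.195 without day 1 replicate 1, edgeR adjusted p = 3.9e-05). EOMES, a T-box factor of the streak and of trophoblast, went from 0.417, 0.109 and 0.446 CPM to 6.996, 18.96 and 28.3 CPM with RP22 and was lowest in RP22 replicate 1 (5.75 ± 0.725, edgeR adjusted p = 0.00036). The ligand WNT3, with 1.15, 1.20 and 1.003 CPM at day 1 and 27.1, 23.0 and 29.5 CPM with RP22, rose by a similar factor in each library (4.56 ± 0.193, edgeR adjusted p = 9.4e-07). SP5 (4.99 ± 0.388, edgeR adjusted p = 1.4e-05), a target of WNT signalling, rose too, and EVX1, a homeobox factor of the posterior streak, was at least 42.4-fold higher. Of 6 tested germ cell genes, 2 rose and 1 fell, which is no excess over the shares of all genes tested. The faller was DAZL, an RNA-binding protein of germ cells, with 71, 25 and 58 reads at day 1 and 1 read with RP22, in replicate 3. Its fitted log2 fold change was -6.91 ± 0.779 (edgeR adjusted p = 9.3e-05), and -8.71 without that library.

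Neuronal genes rose, and neural progenitor genes split. Of 23 neuron genes tested, 20 rose and 0 fell (median 3.87, against 36.6% and 35.2% of all genes and a median of 0.02). DCX, a microtubule protein of young neurons, had 9.59, 7.08 and 10.14 CPM at day 1 and 227, 235 and 243 CPM with RP22. The 3 RP22 libraries were close to each other and far above day 1 (4.72 ± 0.132, edgeR adjusted p = 1.5e-07). STMN4, another microtubule regulator, had 6 reads at day 1 and 38.8, 41.2 and 44.1 CPM with RP22 (7.496 ± 0.344, edgeR adjusted p = 1.3e-06), and 6.90 without day 1 replicate 1. The RNA-binding protein ELAVL4 went from 0.938, 0.327 and 1.56 CPM to 64.1, 108 and 96.1 CPM with RP22 (6.56 ± 0.387, edgeR adjusted p = 1.2e-05). ISL1, a homeobox factor of motor and sensory neurons and of cardiac progenitors, had 0.938, 0.327 and 0.223 CPM at day 1 and 31.1, 52.3 and 43.8 CPM with RP22 (6.36 ± 0.390, or 7.19 without day 1 replicate 1). The proneural factor NEUROG1 was at least 71.0-fold higher. Without RP22 replicate 1, 20 neuron genes rose and 1 fell, and 1 also fell without day 1 replicate 2. The list's sum was 758, 645 and 709.7 CPM at day 1 and 2445, 2555 and 2539 CPM with RP22, with no gap between RP22 replicate 1 and the others.

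Among 18 neural progenitor genes tested, 10 rose and 5 fell (36.6% and 35.2% of all genes tested), and the summed level was lower in RP22 replicate 1 (996, 1597 and 1515 CPM with RP22, 1836, 1669.8 and 1785 CPM at day 1). Without RP22 replicate 1, 12 rose and 5 fell, and 3 fell without day 1 replicate 1. Over all single libraries left out, the number of risers ranged from 7 to 12. PAX6, a factor of neural tube and eye, went from 1.25, 1.20 and 2.78 CPM to 42.7, 127 and 104 CPM with RP22, with replicate 1 lowest (5.71 ± 0.600, edgeR adjusted p = 0.00031). OTX1, a forebrain factor, had 0.625, 0.762 and 0.780 CPM at day 1 and 34.7, 58.1 and 54.4 CPM with RP22 (6.06 ± 0.288, edgeR adjusted p = 1.6e-06). ZIC1 (0, 0 and 0.668 CPM at day 1, 56.5, 80.0 and 64.9 CPM with RP22) rose by 8.19 ± 0.523 (edgeR adjusted p = 1.7e-05), while its relative ZIC2, which stem cells also express, fell (-1.24 ± 0.397, adjusted p = 0.032). The ZIC2 call ended without RP22 replicate 3 (adjusted p = 0.051), without day 1 replicate 1, 2 or 3 (0.11, 0.061 and 0.057), with library totals alone (0.053) and with no count filter (0.057). It also ended with replicate number as a block in the edgeR fit (0.051). All 6 day 1 reads of ZIC1 were in replicate 3, and without it the log2 fold change was 12.35 (7.60 without day 1 replicate 1). PAX3, a factor of dorsal neural tube and neural crest, had 1 read at day 1 and 34.0, 24.4 and 24.1 CPM with RP22 (ratio 759, 95% counting interval 136 to 30019.8, fitted log2 fold change 9.13, and 11.07 without day 1 replicate 2). SOX1, a neuroectoderm factor, had 6.15, 2.72 and 3.01 CPM at day 1 and 2.51, 32.1 and 32.3 CPM with RP22. RP22 replicate 1 lay below the day 1 range, and SOX1 was not called (edgeR adjusted p = 0.056). Without that library it was, at 3.01 (adjusted p = 3.1e-05), as with DESeq2 (0.018) and with all 9 libraries (0.027).

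Neural crest and Schwann cell genes rose in 12 of 15 cases and fell in 0 (36.6% and 35.2% of all genes tested). Without RP22 replicate 1, which had the highest sum (1928, 1020.1 and 1036 CPM, against 444, 347 and 386 CPM at day 1), 11 rose. The range over single libraries left out was 10 to 12 risers. TFAP2B, a crest factor, had 81.4, 79.4 and 89.9 CPM with RP22 and 2 reads at day 1, both in replicate 3, a ratio of 1163 (95% counting interval 322 to 9606, fitted log2 fold change 9.94, and 12.67 without day 1 replicate 3, edgeR adjusted p = 3.1e-07). SOX10, which marks crest and glia, went from 4.06, 3.59 and 3.68 CPM to 135, 49.6 and 45.2 CPM with RP22. Its log2 fold change of 4.34 ± 0.567 (edgeR adjusted p = 0.0008) was 3.64 without RP22 replicate 1. S100B, a glial calcium-binding protein, had 0.208, 0.436 and 0.446 CPM at day 1 and 30.5, 4.89 and 4.20 CPM with RP22 (5.14 ± 1.15, edgeR adjusted p = 0.0075). The S100B call ended with limma-voom (adjusted p = 0.075), and its value was 3.60 without RP22 replicate 1. FOXD3, a factor of both stem cells and early crest, was not called, with 7.09, 23.2 and 20.5 CPM at day 1 and 17.4, 7.75 and 6.63 CPM with RP22 (-0.68, edgeR adjusted p = 0.31). Without replicate 1 of both groups it was called lower (-1.61, adjusted p = 4.9e-11). Pigment and lens genes rose in 7 of 8 cases, among them DCT, an enzyme of melanin synthesis (no read at day 1, 8.04, 17.2 and 12.99 CPM with RP22, at least 118-fold higher) and the melanocyte and retinal pigment factor MITF (3.75, 2.94 and 4.12 CPM at day 1, 17.3, 16.1 and 15.8 CPM with RP22, 2.18 ± 0.187, edgeR adjusted p = 2.2e-05).

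Surface ectoderm and amnion genes rose in 16 of 17 cases and fell in 0 (36.6% and 35.2% of all genes), with a median of 3.20, and in 15 without RP22 replicate 1. The 3 RP22 libraries had similar sums, at 4989, 5067 and 4764 CPM, above 934, 712 and 823 CPM at day 1. GABRP, a GABA receptor subunit of epithelia, had 4.38, 2.18 and 1.67 CPM at day 1 and 651, 882 and 929 CPM with RP22 (8.21 ± 0.329, edgeR adjusted p = 3.1e-06). VTCN1, an immune checkpoint ligand found in amnion and trophoblast, had 1.67, 0.327 and 0.446 CPM at day 1 and 242, 258 and 265 CPM with RP22, with the most day 1 reads in replicate 1 (8.25 ± 0.314, edgeR adjusted p = 1.7e-06, or 9.31 without that library). TP63, the master factor of stratified epithelia, had 1 read at day 1 and 45.5, 40.4 and 34.2 CPM with RP22 (ratio 1105, 95% counting interval 198 to 43682, fitted log2 fold change 9.67, and 11.59 without day 1 replicate 1). The basal keratin KRT14 was at least 44.6-fold higher, with 6.06, 4.28 and 4.20 CPM. The simple epithelial keratins rose as well. KRT8 went from 160.2, 166 and 170.1 CPM to 1038, 1041 and 903 CPM with RP22 (2.59 ± 0.0849, edgeR adjusted p = 3.1e-07) and KRT18 from 113, 195 and 169 CPM to 832, 852 and 763 CPM with RP22 (2.36 ± 0.193, edgeR adjusted p = 3.7e-05).

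Each of the 18 trophoblast genes rose (36.6% of all genes tested), with a median log2 fold change of 8.64. All 18 also rose without RP22 replicate 1. The summed level was 18.97, 10.6 and 10.9 CPM at day 1 and 1181, 1307 and 1190.0 CPM with RP22. CGA, the alpha subunit of chorionic gonadotropin, had 0, 1 and 0 reads at day 1 and 2348, 4362 and 3919 reads with RP22. These were 245, 445 and 366 CPM in the RP22 libraries, a ratio of 9804 with a 95% counting interval of 1759 to 387275 (edgeR adjusted p = 2.9e-06). The read at day 1 was in replicate 2, and without that library the fitted log2 fold change went from 12.81 to 14.75. Of the beta subunit genes, CGB5 had 2 reads at day 1 and 25.4, 45.6 and 43.8 CPM with RP22 (ratio 535, 95% counting interval 148 to 4419). CGB and CGB8, also called higher, are nearly identical copies, so the division of reads among them is uncertain. HSD3B1, an enzyme of placental steroid synthesis, had 1 read at day 1 and 37.4, 96.9 and 73.4 CPM with RP22 (ratio 1932, 95% counting interval 346 to 76362, fitted log2 fold change 10.47, and 12.38 without day 1 replicate 1). ERVW-1, the envelope gene that encodes syncytin and fuses trophoblast cells, had 1 read at day 1 and 26.5, 36.9 and 39.5 CPM with RP22 (ratio 958, 95% counting interval 172 to 37889, fitted log2 fold change 9.45, and 11.39 without day 1 replicate 3). GCM1, a factor of the syncytium, was at least 58.1-fold higher, at 8.04, 4.48 and 6.35 CPM. GATA3, a factor of trophoblast and amnion, went from 0.521, 0.327 and 0.111 CPM to 110.5, 113 and 97.5 CPM with RP22 (8.31 ± 0.223, edgeR adjusted p = 1.5e-07).

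The 250 bases before the starts of CGA, FN1 and HES3 are shown because CGA led the trophoblast list, FN1 had the highest level per length with RP22 and HES3 was the first of the 12 largest falls. They come from RefSeq (GRCh38.p14) and run 5′ to 3′ on the strand of the gene, which is the minus strand for CGA (chr6:87095107-87095356) and FN1 (chr2:215436069-215436318) and the plus strand for HES3 (chr1:6243929-6244178). Capitals mark the cyclic AMP response element TGACGTCA, TATAAA, and CCAAT or its reverse complement ATTGG.
CGA: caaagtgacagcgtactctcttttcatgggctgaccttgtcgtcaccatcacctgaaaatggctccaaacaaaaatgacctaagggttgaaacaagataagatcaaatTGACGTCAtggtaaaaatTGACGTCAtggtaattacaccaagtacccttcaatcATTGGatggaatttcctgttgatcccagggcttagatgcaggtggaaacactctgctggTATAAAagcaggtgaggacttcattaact
FN1: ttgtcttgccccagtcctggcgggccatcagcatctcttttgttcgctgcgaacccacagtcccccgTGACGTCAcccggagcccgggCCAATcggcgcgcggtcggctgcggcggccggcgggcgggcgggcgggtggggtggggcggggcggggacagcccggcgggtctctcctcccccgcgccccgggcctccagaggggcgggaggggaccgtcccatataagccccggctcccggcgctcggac
HES3: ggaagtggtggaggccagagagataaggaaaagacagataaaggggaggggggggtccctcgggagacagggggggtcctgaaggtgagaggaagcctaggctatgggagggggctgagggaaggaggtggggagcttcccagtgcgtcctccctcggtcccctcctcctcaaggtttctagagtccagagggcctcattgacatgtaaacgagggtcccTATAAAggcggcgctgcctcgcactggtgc
In CGA the response element occurs at 142 to 135 and at 124 to 117 bases before the start, with TATAAA at 29 to 24 bases and ATTGG at 88 to 84 bases. FN1 holds it once, at 183 to 176 bases, with CCAAT at 162 to 158 bases. HES3 has TATAAA at 30 to 25 bases and neither of the other motifs. Of 35116 promoters of this length, searched on both strands, 1.65% held TGACGTCA, 10.7% TATAAA and 32.0% CCAAT. The matches are descriptions of the letters and do not show binding.

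Endoderm genes rose from few reads. Of 11 definitive endoderm genes, 10 rose and 1 fell (36.6% and 35.2% of all genes tested, median 5.32), the same numbers as without RP22 replicate 1. The sum reached 138, 118 and 123 CPM from 28.1, 24.4 and 25.8 CPM. GATA6, a factor of endoderm and heart, had 0.625, 0.327 and 0.223 CPM at day 1 and 80.5, 37.6 and 35.6 CPM with RP22 (6.97 ± 0.571, edgeR adjusted p = 6.1e-05). SOX17 had 1 read at day 1 and 37, 57 and 76 reads with RP22, and HNF4A, a liver and gut factor, 1 read and 44, 33 and 58 reads. Both rose, with edgeR adjusted p of 3.7e-05 and 4.2e-05. Their fitted log2 fold changes went from 6.84 to 8.77 and from 6.51 to 8.45 without day 1 replicate 3, which held the read. FOXA3 was the faller (18.97, 19.9 and 20.6 CPM at day 1, 1.15, 1.43 and 2.62 CPM with RP22, -3.50 ± 0.281, edgeR adjusted p = 1.6e-05). The hepatic and yolk sac list had 10 of 11 tested members higher and 1 lower, the latter being AMBP (1.67, 2.07 and 1.67 CPM at day 1, 1.25, 0.510 and 0.654 CPM with RP22, edgeR adjusted p = 0.029). The AMBP call ended without RP22 replicate 2 or 3 (adjusted p = 0.1 and 0.099), without day 1 replicate 1, 2 or 3 (0.052, 0.094 and 0.061), with DESeq2 (0.12) and with all 9 libraries (0.058). It also ended with replicate number as a block in the edgeR fit (0.054). AFP, the fetal serum protein, went from 2.50, 5.23 and 4.90 CPM to 54.0, 16.5 and 28.6 CPM with RP22 and was highest in RP22 replicate 1 (2.97 ± 0.525, edgeR adjusted p = 0.0025). The apolipoprotein APOA1 had 3 reads at day 1 and 43.5, 48.7 and 60.3 CPM with RP22 (ratio 473, 95% counting interval 162 to 2299, fitted log2 fold change 8.71, and 9.58 without day 1 replicate 2). ALB, the marker of mature hepatocytes, stayed below the count filter, with 1, 0 and 1 reads at day 1 and 1, 6 and 6 reads with RP22. Of 12 listed gut and lung genes 5 were tested, and 2 rose and 3 fell. CDX2, of hindgut and trophoblast, rose to 10.02, 8.36 and 7.38 CPM from 1 read, and the intestinal genes VIL1 (-1.86 ± 0.285) and GUCY2C (-2.22 ± 0.420) fell. The other faller of this list was SOX2 (-3.09), described above with the pluripotency factors.

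Lateral plate mesoderm and cardiac transcription factors rose in 15 of 15 cases (36.6% of all genes tested, median 6.26). With any single library left out 14 to 15 rose, and 15 did without RP22 replicate 1. That library had the highest sum, with 1157, 594 and 585 CPM against 49.0, 31.1 and 36.0 CPM at day 1. HAND1, a factor of extraembryonic and lateral mesoderm, had 4.38, 0.436 and 0.668 CPM at day 1 and 320.3, 133 and 126 CPM with RP22. The log2 fold change was 6.68 ± 0.797 (edgeR adjusted p = 0.00055), and 8.41 without day 1 replicate 1, where most day 1 reads lay. HAND2 had no read at day 1 and 94.0, 13.96 and 17.1 CPM with RP22 and was at least 375-fold higher (edgeR adjusted p = 0.018). The HAND2 call ended without day 1 replicate 1 (adjusted p = 0.061) and with no count filter (0.06), and the fitted value went from 11.65 to 10.23 without RP22 replicate 1. TBX3, a T-box factor of limb, heart and amnion, differed less between the RP22 libraries, with 0.313, 0.327 and 0.334 CPM at day 1 and 157, 109.8 and 101 CPM with RP22 (8.50 ± 0.293, edgeR adjusted p = 5.1e-07). GATA4 had 3 reads at day 1 and 17.2, 9.48 and 11.2 CPM with RP22 (ratio 116, 95% counting interval 39.5 to 566, fitted log2 fold change 6.70, and 7.57 without day 1 replicate 3).

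Contractile genes of the heart rose in 10 of 13 cases and fell in 0 (36.6% and 35.2% of all genes tested). Without RP22 replicate 1, 11 rose, and 9 to 11 did with any single library left out. Summed over the list, the RP22 libraries held 569, 732 and 596 CPM, lowest in replicate 1, although the cardiac genes named next were highest there. The atrial light chain MYL7 went from 0.313, 0.327 and 0.111 CPM to 47.1, 26.2 and 26.8 CPM with RP22 (6.98 ± 0.422, edgeR adjusted p = 5.7e-06), and MYL4 was at least 168-fold higher with 26.7, 14.2 and 14.3 CPM. MYH6, the alpha myosin heavy chain, had 2 reads at day 1 and 18.5, 14.4 and 15.6 CPM with RP22 (ratio 224, 95% counting interval 61.6 to 1852). TNNT2, cardiac troponin T, had 4.38, 3.16 and 3.45 CPM at day 1 and 49.7, 26.8 and 20.3 CPM with RP22 (3.13 ± 0.380, edgeR adjusted p = 0.00027). Smooth muscle and pericyte genes rose in 10 of 15 cases and fell in 0, with a median of 1.51. ACTA2, smooth muscle actin, had 6.25, 5.01 and 4.46 CPM at day 1 and 83.0, 98.6 and 70.1 CPM with RP22 (3.99 ± 0.178, edgeR adjusted p = 1.2e-06). PDGFRB, the receptor that marks pericytes, had 1.46, 3.38 and 2.90 CPM at day 1 and 123, 77.4 and 72.0 CPM with RP22 (5.14 ± 0.344, edgeR adjusted p = 2.1e-05). RGS5, another pericyte gene, was uneven, with 306, 116 and 114 CPM with RP22 from 23.8, 20.9 and 24.4 CPM (2.96 ± 0.462, edgeR adjusted p = 0.0018, or 2.32 without RP22 replicate 1).

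Vascular and blood genes were sparse. Of 15 endothelial genes 11 were tested, 8 rose and 1 fell (7 and 1 without RP22 replicate 1), against 36.6% and 35.2% of all genes tested. The list's sum was 262, 140.3 and 162 CPM with RP22 and 69.3, 100.4 and 95.9 CPM at day 1. CDH5, the endothelial cadherin, had 2 reads at day 1, both in replicate 3, and 10.5, 16.4 and 16.2 CPM with RP22 (ratio 201, 95% counting interval 55.2 to 1662, fitted log2 fold change 7.40, and 10.13 without day 1 replicate 3, edgeR adjusted p = 1.4e-05). The angiopoietin receptor TEK rose from 8.03, 6.64 and 7.35 CPM to 41.7, 13.5 and 17.4 CPM with RP22 (1.71 ± 0.442, edgeR adjusted p = 0.011). Without RP22 replicate 1 this was 1.07, and with all 9 libraries the call ended (adjusted p = 0.058). KDR, a VEGF receptor that stem cells also express, was not called (34.5, 57.5 and 57.4 CPM at day 1, 146, 63.2 and 84.5 CPM with RP22, edgeR adjusted p = 0.052). It was called without RP22 replicate 2 (1.21, adjusted p = 0.02), with DESeq2 (0.0014), with library totals alone (0.032), on the RPKM scales and without replicate 1 of both groups (0.36, adjusted p = 0.0084). PECAM1 stayed below the count filter with 14, 10 and 5 reads with RP22 and none at day 1. Of 15 blood genes 3 were tested, and these 3 rose. RUNX1, a factor of blood stem cells and of other lineages, had 0.521, 0.980 and 0.891 CPM at day 1 and 34.7, 33.9 and 33.2 CPM with RP22 (5.39 ± 0.201, edgeR adjusted p = 5.1e-07), whereas the embryonic globin HBE1 had 2, 2 and 4 reads with RP22.

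Other mesodermal lists gave small numbers, to be read beside the 36.6% higher and 35.2% lower of all genes tested. Of 14 paraxial and intermediate mesoderm genes 6 were tested, and these 6 rose. Examples were FOXC1, a factor of somites and kidney (0.313, 0.109 and 0.557 CPM at day 1, 10.4, 15.1 and 12.1 CPM with RP22, 5.22 ± 0.399, edgeR adjusted p = 1.3e-05) and EYA1 (5.32, 2.83 and 3.90 CPM at day 1, 10.4, 17.6 and 18.3 CPM with RP22, 1.94 ± 0.304, edgeR adjusted p = 0.00057). Of 12 skeletal muscle genes 4 were tested, 0 rose (1 without RP22 replicate 3) and 2 fell, TNNT1 (-1.86 ± 0.181, edgeR adjusted p = 5.2e-05) and MYH3 (-0.77 ± 0.287, adjusted p = 0.04). The MYH3 call ended without RP22 replicate 1 (0.078) or 2 (0.098), without day 1 replicate 2 (0.16) or 3 (0.081), with DESeq2 (0.074), with library totals alone (0.074) and on log2(RPKM + 0.1) (0.1). Cartilage and bone genes rose in 8 of 9 cases and fell in 1. COL2A1, the collagen of cartilage and notochord, went from 2.50, 4.25 and 4.01 CPM to 284, 409.8 and 392.2 CPM with RP22, higher in replicates 2 and 3 than in replicate 1 (6.66 ± 0.236, edgeR adjusted p = 9.5e-07). ACAN, the cartilage proteoglycan, showed the reverse order, with 55.2, 15.3 and 14.7 CPM from 2.19, 0.980 and 2.45 CPM (3.91 ± 0.735, edgeR adjusted p = 0.0037, or 2.99 without RP22 replicate 1).

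Every tested gene of the extracellular matrix rose. Of 21 matrix genes 21 rose and 0 fell (median 4.60, against 36.6% and 35.2% and a median of 0.02 among all genes). With any single library left out, 18 to 21 of the 21 matrix genes rose, and all 21 did without RP22 replicate 1. Their summed level was 1290.3, 1064 and 1106 CPM at day 1 and 44179, 18364 and 19439.7 CPM with RP22, 2.34 times as high in replicate 1 as in the mean of replicates 2 and 3. FN1, fibronectin, whose promoter is shown above, had 67.2, 52.4 and 42.7 CPM at day 1 and 5806, 4811 and 4845 CPM with RP22. It was nearly even across the RP22 libraries (6.57 ± 0.205, edgeR adjusted p = 5e-07). Per length, FN1 was the highest gene with RP22, at 1043 ± 90.8 RPKM (a read count per gene length, normalised for depth; mean ± SD, n = 3) against 7.60 ± 2.03 RPKM at day 1. COL3A1, the collagen of soft connective tissue, followed in the mean, at 819 ± 721 RPKM, a rank carried by RP22 replicate 1. It had 11.2, 0.436 and 0.223 CPM at day 1 and 9130.4, 1949.6 and 2254 CPM with RP22. Its log2 fold change of 10.11 ± 1.45 (edgeR adjusted p = 0.0012) was 9.01 without RP22 replicate 1 and 13.65 without day 1 replicate 1.

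Other fibrillar and fibroblast genes shared this spread. COL1A1, the main collagen of bone and skin, had 213, 177 and 204 CPM at day 1 and 6348, 2298 and 2407 CPM with RP22 (4.22 ± 0.484, edgeR adjusted p = 0.00047, or 3.57 without RP22 replicate 1). DCN, the proteoglycan decorin, had 1 read at day 1 and 478, 59.2 and 70.8 CPM with RP22 (ratio 5461, 95% counting interval 979.7 to 215716, edgeR adjusted p = 0.0023). The DCN call ended without day 1 replicate 1 (adjusted p = 0.052) and with limma-voom (0.088), and the fitted value went from 12.01 to 13.93 without day 1 replicate 1 and to 10.37 without RP22 replicate 1. POSTN, periostin, a product of fibroblasts and valve mesenchyme, had 2.61, 1.85 and 1.11 CPM at day 1 and 1909, 155 and 227 CPM with RP22. The log2 fold change of 8.66 ± 1.51 (edgeR adjusted p = 0.0029) was 6.66 without RP22 replicate 1, and the call ended with limma-voom (0.081). In each of these genes RP22 replicate 1 was the highest library, and the other RP22 libraries still lay above all of day 1.

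Basement membrane genes, which line epithelia and vessels, rose in 15 of 16 cases and fell in 0 (15 and 1 without RP22 replicate 1), with a smaller difference between the RP22 libraries (10336, 8218 and 8319.7 CPM, 1755, 1417 and 1469.6 CPM at day 1). COL4A1 went from 142, 149 and 155 CPM to 2127, 1777 and 1766 CPM with RP22 (3.67 ± 0.102, edgeR adjusted p = 1.5e-07) and COL4A2, its partner chain, from 151, 133 and 155 CPM to 1901, 1597 and 1582 CPM with RP22 (3.53 ± 0.110, edgeR adjusted p = 2.5e-07). Of 15 genes of the epithelial to mesenchymal transition, 8 rose and 4 fell (36.6% and 35.2% of all genes tested). The repressor ZEB1 had 0.521, 1.52 and 1.003 CPM at day 1 and 57.2, 79.3 and 76.1 CPM with RP22 (6.11 ± 0.275, edgeR adjusted p = 1.6e-06), and the cadherins CDH2 (3.50 ± 0.274, adjusted p = 5.2e-05) and CDH11 (4.94 ± 0.337, adjusted p = 3.4e-05) of neural and mesenchymal cells rose as well. The filament VIM rose from 393, 487 and 393 CPM to 1194, 1104 and 967 CPM with RP22 (1.36 ± 0.117, adjusted p = 2.2e-05). CDH1, the epithelial cadherin, was not called, with 663, 481 and 558 CPM at day 1 and 503, 560.4 and 599 CPM with RP22 (edgeR adjusted p = 0.82), but was called higher without replicate 1 of both groups (0.15, adjusted p = 0.041), while EPCAM (-1.19 ± 0.134) and CLDN6 (-1.03 ± 0.0854) fell, with adjusted p of 0.0001 and 1.8e-05.

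HOX genes, the clustered factors that give cells their position along the body, were almost silent at day 1. Of 39 listed 14 passed the count filter, and 13 of these rose and 0 fell (36.6% and 35.2% of all genes tested). The median log2 fold change of the 14 was 8.64. The sum over all 39 was 2.29, 1.31 and 0.334 CPM at day 1 and 269.8, 91.5 and 100.2 CPM with RP22. Of the 14, 8 were of the B cluster. HOXB2 had 2 reads at day 1 and 43.0, 21.3 and 24.4 CPM with RP22 (ratio 407, 95% counting interval 112 to 3364, fitted log2 fold change 8.44, and 11.17 without day 1 replicate 2), and HOXB4 was at least 89.8-fold higher with 18.5, 5.71 and 5.51 CPM (edgeR adjusted p = 0.0029, fitted log2 fold change 9.58, and 8.76 without RP22 replicate 1). HOXC8 had no read at day 1 and 37.8, 5.402 and 7.38 CPM with RP22, with most reads in replicate 1. It was at least 152-fold higher (edgeR adjusted p = 0.019), a call that ended without day 1 replicate 1 (0.06) and with no count filter (0.053). Its fitted value went from 10.34 to 8.95 without RP22 replicate 1. HOXC6, with 15.04, 1.63 and 1.31 CPM and no read at day 1, was not called (edgeR adjusted p = 0.052), but was called without RP22 replicate 1 (6.83, adjusted p = 0.00062) or 3 (0.048) and under 9 other settings, among them DESeq2 (0.00019). HOXB1, the most anterior gene of its cluster, was not high in replicate 1, at 1.36, 2.65 and 2.71 CPM with RP22.

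**Figure D3:**
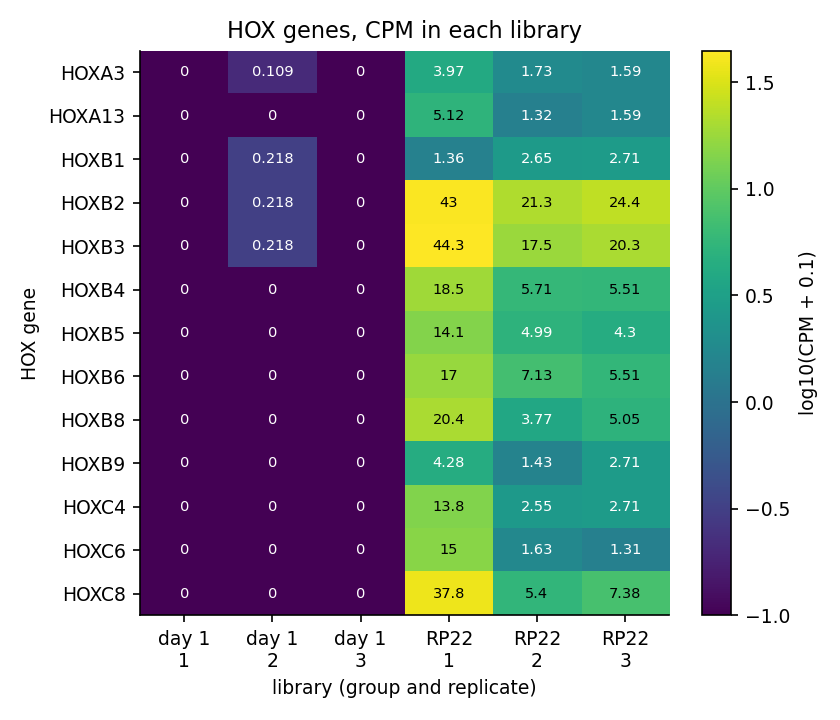
CPM of 13 of the HOX genes tested (vertical axis, by cluster and number) in the 3 day 1 and the 3 RP22 libraries (horizontal axis), with the colour giving log10(CPM + 0.1) and the CPM printed in each field. Day 1 libraries hold 0 or a few reads, and RP22 replicate 1 is the highest library for 12 of these 13 genes, HOXB1 being the exception.

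Imprinted genes, expressed from 1 parental allele and many of them regulators of fetal growth, rose in 11 of 14 cases and fell in 2 (11 and 2 without RP22 replicate 1). Among all genes tested 36.6% rose and 35.2% fell. IGF2, the fetal growth factor, had 6.98, 5.01 and 4.57 CPM at day 1 and 5891, 2903 and 3020.0 CPM with RP22. It was highest in RP22 replicate 1, and no library of one group came near the other (9.47 ± 0.458, edgeR adjusted p = 1.2e-05). In mean level per length IGF2 followed FN1 and COL3A1, at 784 ± 307 RPKM, although reads of the overlapping readthrough gene INS-IGF2 cannot be told apart. GNAS was next, at 780 ± 6.89 RPKM, so the rank of IGF2 rested on RP22 replicate 1. PLAGL1, a zinc finger regulator of imprinted genes, had 1.56, 1.09 and 0.334 CPM at day 1 and 102, 81.2 and 85.0 CPM with RP22 (6.45 ± 0.291, edgeR adjusted p = 2.2e-06), and PEG3 had 101, 63.8 and 71.6 CPM at day 1 and 576, 513 and 515 CPM with RP22 (2.76 ± 0.175, edgeR adjusted p = 9.4e-06). SNRPN, a splicing protein gene, fell from 514, 639 and 561 CPM to 96.1, 114 and 117 CPM with RP22 (-2.39 ± 0.114, edgeR adjusted p = 1.6e-06).

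Among 19 genes of DNA methylation and chromatin, 4 rose and 10 fell (36.6% and 35.2% of all genes tested). DNMT3B, the methyltransferase that lays down new methylation in early embryos, had the largest fall of the list (2505, 2645 and 2751 CPM at day 1, 76.0, 135 and 164 CPM with RP22, -4.40 ± 0.300, edgeR adjusted p = 3.5e-05). HMGA1, an architectural protein that was the highest gene per length at day 1 (1242 ± 102 RPKM), went from 2162, 2528 and 2369 CPM to 358, 459 and 449 CPM with RP22 (-2.48 ± 0.117, edgeR adjusted p = 1.5e-06). JARID2, a subunit of the Polycomb complex PRC2, fell (-2.11 ± 0.138, adjusted p = 6.8e-06). The linker histone H1F0 of slowly dividing cells rose from 52.1, 50.2 and 60.2 CPM to 209.9, 257 and 281 CPM with RP22 (2.20 ± 0.128, edgeR adjusted p = 3.7e-06), as did the methylcytosine dioxygenase TET2 (2.16 ± 0.226, adjusted p = 9.2e-05).

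Most tested genes of the WNT, BMP, retinoic acid and Notch pathways rose. In the WNT pathway 19 of 24 genes rose and 2 fell (36.6% and 35.2% of all genes tested, median 4.35), or 20 and 2 without RP22 replicate 1, with 1 faller without RP22 replicate 2 or 3. Over all single libraries left out, 17 to 20 rose and 1 to 3 fell. WNT6, a ligand of surface ectoderm, had 1 read at day 1 and 94.5, 104 and 107 CPM with RP22 (ratio 2835, 95% counting interval 509 to 112029, fitted log2 fold change 11.02, and 12.94 without day 1 replicate 1, edgeR adjusted p = 1.2e-07). RSPO2, like RSPO3 an enhancer of WNT receptors, had 0.104, 0.218 and 0.111 CPM at day 1 and 118, 74.6 and 80.7 CPM with RP22 (9.18 ± 0.349, edgeR adjusted p = 8.3e-07). WNT8B, a ligand of the forebrain, had 3 reads at day 1, all in replicate 3, and was low in RP22 replicate 1, with 29.8, 106 and 95.3 CPM (ratio 721, 95% counting interval 246 to 3497, fitted log2 fold change 9.31, and 12.55 without day 1 replicate 3). WNT2, a ligand of mesenchyme, was high there instead, with 45.1, 2.75 and 5.33 CPM (edgeR adjusted p = 0.011). The WNT2 call ended without day 1 replicate 1 (adjusted p = 0.11) or 2 (0.051) and with limma-voom (0.066), and the fitted value went from 8.50 to 6.38 without RP22 replicate 1 and to 10.41 without day 1 replicate 1.

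In the BMP pathway 10 of 16 genes rose and 1 fell (36.6% and 35.2% of all genes tested), or 13 and 2 without replicate 1 of both groups. The ligand BMP5 had no read at day 1 and 41.6, 28.0 and 30.0 CPM with RP22, at least 306-fold higher (edgeR adjusted p = 7.5e-06), and BAMBI, a decoy receptor, went from 13.4, 13.2 and 12.03 CPM to 211, 148 and 148 CPM with RP22 (3.71 ± 0.168, edgeR adjusted p = 1.4e-06). Retinoic acid and NR2F genes rose in 11 of 15 cases and fell in 2. NR2F2, an orphan receptor of mesenchyme, had 0.521, 0.218 and 0.223 CPM at day 1 and 396, 371 and 363 CPM with RP22. With nearly equal levels in the 3 RP22 libraries, NR2F2 had the lowest adjusted p of the genes named here (10.13 ± 0.175, edgeR adjusted p = 3.9e-08). NR2F1, its neural relative, had 3 reads at day 1 and 35.6, 164 and 141 CPM with RP22, lowest in replicate 1 (ratio 1063, 95% counting interval 363 to 5155). RARB, a retinoic acid receptor that retinoic acid itself induces, had 1.04, 1.74 and 2.23 CPM at day 1 and 21.3, 24.4 and 17.9 CPM with RP22 (3.66 ± 0.271, edgeR adjusted p = 1.1e-05).

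Of 18 FGF pathway genes 8 were higher and 5 lower, shares not far from the 36.6% and 35.2% of all genes tested. FGF2, the factor that the maintenance medium supplied, went as a transcript from 369, 454 and 417 CPM to 20.2, 37.6 and 36.8 CPM with RP22 (-3.71 ± 0.247, edgeR adjusted p = 2.1e-05), and the receptor FGFR1 from 941, 594 and 687 CPM to 146, 209 and 228 CPM with RP22 (-1.93 ± 0.229, edgeR adjusted p = 0.00031). DUSP6, a phosphatase that FGF signalling induces, rose from 2.71, 3.48 and 5.01 CPM to 35.8, 32.0 and 32.0 CPM with RP22 (3.15 ± 0.209, edgeR adjusted p = 6.5e-06). In the Notch pathway 11 of 14 rose and 1 fell (12 and 2 without RP22 replicate 1). Over all single libraries left out, 9 to 12 rose and 1 to 2 fell. The target HEY1 had 0.834, 0.544 and 0.891 CPM at day 1 and 19.1, 20.8 and 20.3 CPM with RP22 (4.71 ± 0.223, edgeR adjusted p = 1.5e-06) and HES1 5.21, 6.32 and 4.79 CPM at day 1 and 43.4, 57.8 and 63.2 CPM with RP22 (3.33 ± 0.183, edgeR adjusted p = 2.9e-06). Both are in the gene family of HES3, which fell. HES5, a target in neural progenitors, had 0.521, 0.544 and 1.34 CPM at day 1 and 0.940, 9.68 and 15.8 CPM with RP22, so the groups overlapped (edgeR adjusted p = 0.023). The HES5 call ended without either of RP22 replicates 2 and 3 (0.051 and 0.054), without day 1 replicate 1 or 2 (0.097 and 0.087), with limma-voom (0.2) and on log2(RPKM + 1) (0.052). Of 14 insulin-like growth factor genes 7 rose and 4 fell, the risers including the binding protein IGFBP5 (9.48, 9.58 and 7.69 CPM at day 1, 388, 213 and 206 CPM with RP22, 4.91 ± 0.324, edgeR adjusted p = 2.9e-05).

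Most genes of cell division fell. Of 19 DNA replication genes 18 fell and 1 rose (35.2% and 36.6% of all genes tested, median -1.10). Of 16 mitosis genes 14 fell and 1 rose (median -0.9996). Both lists gave the same counts without RP22 replicate 1. MCM5, a subunit of the replicative helicase, had 297, 319.9 and 323 CPM at day 1 and 70.6, 85.2 and 78.7 CPM with RP22 (-2.002 ± 0.0907, edgeR adjusted p = 1.2e-06). BUB1, a kinase of the spindle checkpoint, had 530.2, 465 and 504 CPM at day 1 and 94.1, 91.1 and 87.5 CPM with RP22 (-2.46 ± 0.0806, edgeR adjusted p = 3.1e-07), and the cyclin CCNB1 322, 392.2 and 381 CPM at day 1 and 162, 150.3 and 152 CPM with RP22 (-1.24 ± 0.0926, edgeR adjusted p = 1.2e-05). Their groups did not overlap, and the 3 RP22 libraries were close to each other. Exceptions were the riser of each list, MKI67, which encodes the Ki-67 antigen of cycling cells (298, 222 and 234 CPM at day 1, 327, 310.3 and 331 CPM with RP22, 0.36 ± 0.114, edgeR adjusted p = 0.02), and TYMS (0.26 ± 0.0869, adjusted p = 0.025), and the topoisomerase TOP2A, which was not called (589.8, 471 and 540.1 CPM at day 1, 517, 530.3 and 502 CPM with RP22). The MKI67 call ended without RP22 replicate 3 (adjusted p = 0.059) and without day 1 replicate 2 or 3 (0.058 and 0.094). That of TYMS ended without RP22 replicate 2 or 3 (0.096 and 0.065) and without day 1 replicate 2 or 3 (0.064 and 0.061). The TYMS call also ended with replicate number as a block in the edgeR fit (0.057). Among 18 CDK inhibitors and p53 targets 9 rose and 2 fell (36.6% and 35.2% of all genes tested). CDKN2B, an inhibitor of CDK4 and CDK6, had 0.834, 0.436 and 0.446 CPM at day 1 and 62.2, 82.2 and 66.0 CPM with RP22 (6.90 ± 0.229, edgeR adjusted p = 3.2e-07), and CDKN1A, the inhibitor p21, 12.8, 22.3 and 20.3 CPM at day 1 and 113, 122 and 106 CPM with RP22 (2.63 ± 0.190, edgeR adjusted p = 1.6e-05).

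Most genes of energy metabolism fell. Of 18 glycolysis genes 13 fell and 4 rose (35.2% and 36.6% of all genes tested, median -1.14). Of 18 respiratory chain genes 17 fell and 0 rose (median -0.72). Both lists gave these counts without RP22 replicate 1 too. GAPDH, often taken as a stable reference gene, had 1191, 1326 and 1328 CPM at day 1 and 412, 463 and 425 CPM with RP22 (-1.56 ± 0.0823, edgeR adjusted p = 2.5e-06). TPI1 (-1.62 ± 0.0684) and ALDOA (-1.65 ± 0.0957), enzymes of the same pathway, and HK2 (-1.76 ± 0.120), which phosphorylates glucose, fell with adjusted p of 7.4e-06 or below. The glucose transporter SLC2A3 (GLUT3) ran against them, from 175, 256 and 249 CPM to 1487, 1581 and 1688 CPM with RP22 (2.81 ± 0.153, edgeR adjusted p = 3.7e-06). In the respiratory chain the ATP synthase subunit ATP5B went from 968, 1037 and 1062 CPM to 477, 456 and 439 CPM with RP22 (-1.16 ± 0.0733, edgeR adjusted p = 5.4e-06). Cholesterol synthesis genes rose in 9 of 15 cases and fell in 1 (7 and 2 without RP22 replicate 1, and 0 fallers without RP22 replicate 2 or 3 or day 1 replicate 1 or 3), with HMGCS1, an early enzyme, at 113, 96.9 and 94.9 CPM at day 1 and 195, 234 and 226 CPM with RP22 (1.10 ± 0.103, edgeR adjusted p = 3.4e-05).

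Of 12 tested targets of ATF6, the factor that AA147 activates, 3 rose and 1 fell (36.6% and 35.2% of all genes). Without replicate 1 of both groups 3 rose and 5 fell, whereas leaving out any single library gave the same counts as all 6. The median log2 fold change was 0.02, against 0.02 over all genes. HSPA5 (BiP), the main chaperone of the endoplasmic reticulum, had 957, 1244 and 1060.2 CPM at day 1 and 1055, 888 and 939 CPM with RP22. The groups overlapped (-0.18 ± 0.112, edgeR adjusted p = 0.18), and the difference was called, at -0.34, without replicate 1 of both groups (adjusted p = 4.7e-05). PDIA4, a protein disulfide isomerase, had 323, 381 and 344 CPM at day 1 and 447, 348 and 381 CPM with RP22 (0.17 ± 0.109, edgeR adjusted p = 0.2), and was called with library totals alone (0.26, adjusted p = 0.045). The risers were HERPUD1, which serves degradation of misfolded proteins (19.6, 23.4 and 21.1 CPM at day 1, 57.3, 54.8 and 59.7 CPM with RP22, 1.42 ± 0.1002, edgeR adjusted p = 8.6e-06), DNAJC3 (0.49 ± 0.106) and HSP90B1 (0.41 ± 0.101). HYOU1 was the faller (-0.46 ± 0.0652, adjusted p = 0.00033). The ATF6 transcript itself rose, from 43.4, 47.8 and 45.0 CPM to 103, 92.2 and 90.1 CPM with RP22 (1.07 ± 0.0870, edgeR adjusted p = 1.7e-05).

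Of 12 XBP1s targets, which serve secretion, 7 rose and 2 fell (36.6% and 35.2% of all genes tested), among the risers EDEM1 (19.2, 20.8 and 20.6 CPM at day 1, 109, 80.3 and 83.1 CPM with RP22, 2.17 ± 0.134, edgeR adjusted p = 4.9e-06) and DNAJB9 (1.40 ± 0.129, adjusted p = 3.2e-05), while XBP1 was not called (132, 161 and 154 CPM at day 1, 149.6, 159.9 and 161 CPM with RP22). Targets of the integrated stress response, which limits protein synthesis and supplies amino acids, rose in 2 of 14 cases and fell in 7 (1 and 7 without RP22 replicate 1, and also 1 riser without replicate 2 or without replicate 3). Fallers included ASNS, which makes asparagine (293, 332 and 349 CPM at day 1, 82.1, 144 and 148 CPM with RP22, -1.38 ± 0.224, edgeR adjusted p = 0.0013) and PHGDH, the first enzyme of serine synthesis (460.0, 528 and 556 CPM at day 1, 157, 218 and 216 CPM with RP22, -1.39 ± 0.139, edgeR adjusted p = 6e-05). Of 17 heat shock and NRF2 genes 2 rose and 9 fell, with 5 risers without day 1 replicate 2. HSPD1, the mitochondrial chaperonin, had 1022, 1155 and 1173 CPM at day 1 and 339, 369 and 387 CPM with RP22 (-1.61 ± 0.0882, edgeR adjusted p = 2.9e-06), and NQO1, a quinone reductase that NRF2 induces, 102, 148 and 145 CPM at day 1 and 39.5, 24.3 and 23.7 CPM with RP22 (-2.18 ± 0.245, edgeR adjusted p = 0.00022).

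The RP22 libraries were not alike. Divided by its degrees of freedom, the chi-square of the counts over genes was 28 between RP22 replicates 1 and 2, 26.9 between 1 and 3 and 2.39 between 2 and 3. Of the 3352 genes called at least 2-fold higher, RP22 replicate 1 stood 2-fold or more above the mean of replicates 2 and 3 in 319 and 2-fold or more below in 133, whereas replicate 2 stood 2-fold above replicate 3 in 2 and below in 4. Genes high in replicate 1 included several of connective tissue, with COL15A1 14.1 times, POSTN 9.98 times, the growth factor HGF 9.64 times and DCN 7.31 times the mean of the others. Genes low in it included several of the forebrain and of neural progenitors, where the mean of replicates 2 and 3 was 12.3 times replicate 1 for EMX2, 10.9 times for SOX1, 6.95 times for FEZF2 and 5.05 times for SOX2. These ratios carry an offset of 0.5 CPM and describe single libraries without a test. Over whole lists replicate 1 had 2.34 times the summed level of the others for the matrix, 2.82 for HOX clusters, 1.96 for lateral plate factors and 1.87 for neural crest, 0.960 for neurons, 0.946 for trophoblast, 0.640 for neural progenitors and 0.683 for pluripotency factors. Day 1 replicate 1 differed as well, with chi-square values of 13.8 and 8.47 from day 1 replicates 2 and 3 and 3.66 between those. With the same offset, it stood 2-fold or more above the mean of day 1 replicates 2 and 3 in 222 of the 14559 genes tested. In 139 it stood 2-fold or more below. Among the 3352 genes called at least 2-fold higher these numbers were 124 and 59. Differentiation genes with more reads in it included COL3A1 (107, 4 and 2 reads in day 1 replicates 1 to 3), HAND1 (42, 4 and 6 reads) and VTCN1 (16, 3 and 4 reads). What sets replicate 1 apart in both groups was not tested.

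**Figure D4:**
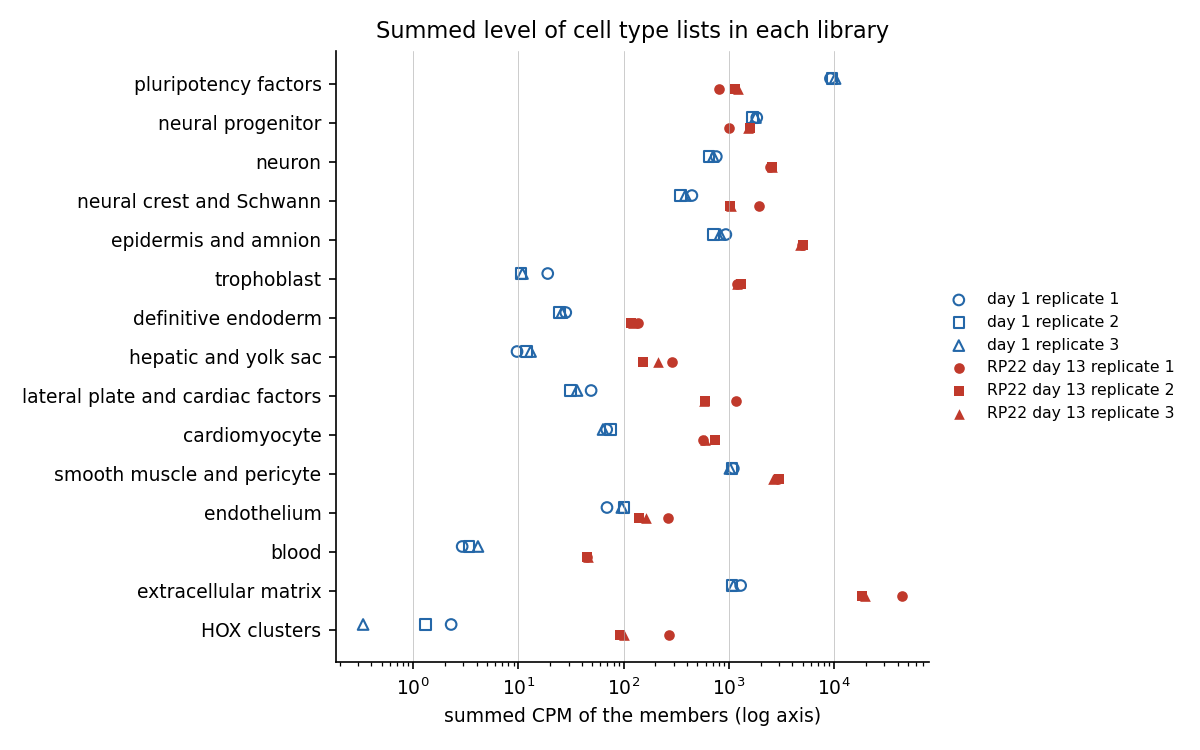
Summed CPM of the listed genes (horizontal log axis) for 15 lists (vertical axis) in each library, with open blue symbols for day 1 and filled red symbols for RP22 at day 13, and a circle, square or triangle for replicates 1, 2 and 3. Pluripotency factors lie an order of magnitude lower with RP22, most other lists lie higher, and the filled circle of RP22 replicate 1 stands apart for the matrix, HOX, lateral plate and neural progenitor lists.

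**Figure D5:**
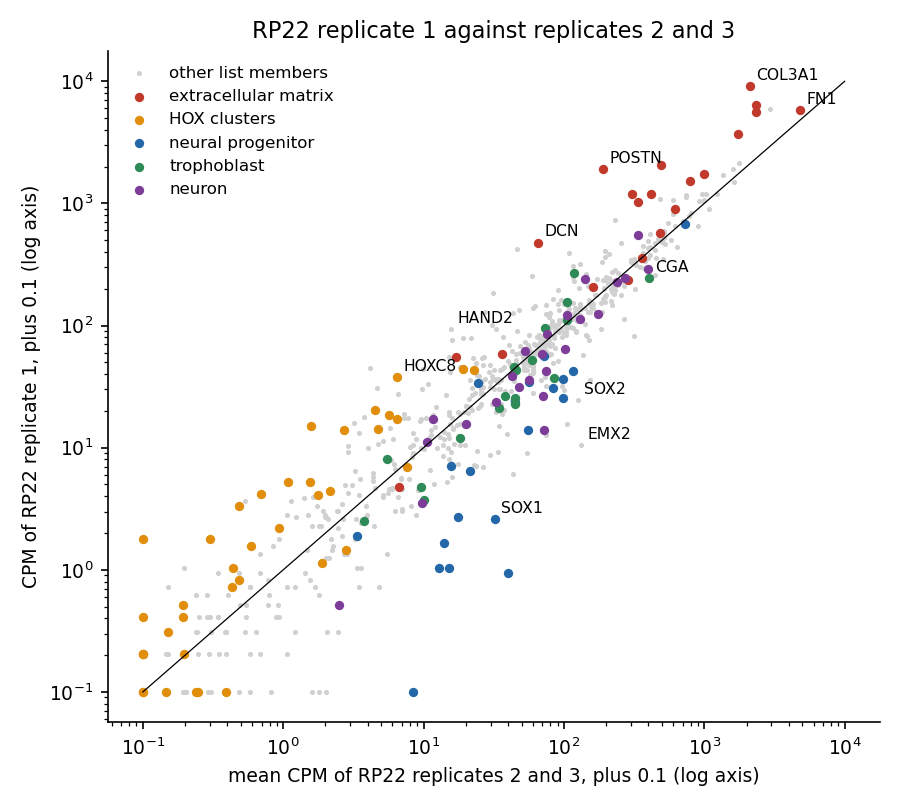
CPM plus 0.1 of each list member in RP22 replicate 1 (vertical log axis) against the mean of RP22 replicates 2 and 3 (horizontal log axis), with 5 lists coloured and the line of equality in black. Matrix and HOX genes lie mostly above the line and neural progenitor genes below it, while trophoblast and neuron genes lie on both sides.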

How the data were processed

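The deposited table of expected counts gives the authors' estimated reads per gene, with a floor of 0.05 read here as 0, and a second deposited table gives RPKM. Reads were placed on GRCh37.p13 per the submitters' processing notes. Neither aligner nor counter is named (not given in the sources used here). Values were rounded and 42 symbols listed on 2 lines were summed, leaving 27730. Genes passing filterByExpr (14559) were tested in edgeR 4.0.16 under R 4.3.3 with TMM scaling, a robust quasi-likelihood F test with group as the only term and Benjamini-Hochberg adjustment at 0.05 over all genes tested. The procedure was run on simulated counts in which a small share of genes changed, evenly up and down, with no outlying library. That setting differs from these data, where most genes were called and RP22 replicate 1 stood apart. Alternatives used DESeq2 1.42.0, limma 3.58.1, other scalings and filters, and each library left out. Counts of 0 take a floor of 3 reads per group, and 95% intervals cover counting error only. The totals of the 6 libraries put 1 read near 0.1 CPM.

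Genes named were the 12 largest rises and falls (groups not overlapping and a higher group mean of 5 CPM or more), up to 5 called members of each of 45 lists (1 CPM or more), the 5 highest genes with no read in a group and 21 fixed genes. A further 42 list members were named as examples after their values were seen, and some genes that the rule names are not reported here. The comparison and the lists were chosen with earlier results of these data known.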

Additional observations from a re-analysis of the deposited data

How the results depend on the processing

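Under 17 alternatives 9447 to 10350 of the 10462 genes called kept their call and direction where the same genes were tested, and 11 changed sign, only on the RPKM scale. Leaving out 1 library gave 9653 to 10615 calls, 4884 to 5420 higher and 4702 to 5195 lower, of which 3339 to 3491 were at least 2-fold higher and 1747 to 1953 at least 2-fold lower. DESeq2 called 10028 genes (5225 higher, 4803 lower) and library totals alone 10388 (5820 higher, 4568 lower), so that the higher share of calls went from 51.0% to 56.0%, and to 57.4% on log2(RPKM + 0.1) with no filter. On log2(RPKM + 1), which shrinks low genes, 1157 genes were at least 2-fold lower, against 1821. With the replicate block 10125 genes were called, 5168 higher and 4957 lower. The main fit does not pair the samples. Same-numbered libraries had correlations of deviations from their group means of -0.0452, -0.00898 and 0.0221. With 3 libraries per group, such values cannot show whether these libraries come from 1 experiment.

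Of 4777 values of the 281 named genes tested, 4663 kept direction and call, 61 lost the call, 28 gained it and 25 changed sign. The sign changes concerned 5 genes not called with all 6 libraries. GDF3 went to -0.0878 with limma-voom, -0.0286 with the replicate block, -0.0299 on log2(RPKM + 0.1) with or without the filter, and -0.595 to 0.574 when 1 library was left out. FGF4 went to -0.726 with limma-voom, -0.345 on log2(RPKM + 0.1) with or without the filter, and -0.668 to 0.849 when 1 library was left out, and it was called higher at 1.17 without replicate 1 of both groups (adjusted p = 0.037). CDH1 went to 0.0686 with library totals alone, 0.0724 on log2(RPKM + 0.1) with or without the filter, 0.0718 on log2(RPKM + 1), 0.153 without replicate 1 of both groups (a call, adjusted p = 0.041) and -0.128 to 0.0848 when 1 library was left out. TOP2A went to 0.0517 with library totals alone, 0.0585 on log2(RPKM + 0.1) with or without the filter, 0.0579 on log2(RPKM + 1), 0.0243 without replicate 1 of both groups and -0.119 to 0.0222 when 1 library was left out. XBP1 ranged from -0.0172 to 0.141 when 1 library was left out. Where not shown by the alternative's construction, the cause was not tested. Genes with few reads in either group carry wide intervals.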

Other observations

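Antigen presentation genes outside the lineage lists split. Of 12 genes of MHC class I presentation 3 rose and 8 fell (36.6% and 35.2% of all genes tested, median -0.43), or 3 and 7 without RP22 replicate 1. PSMB8, a subunit of the immunoproteasome, had 20.9, 18.3 and 18.3 CPM at day 1 and 3.97, 2.75 and 4.02 CPM with RP22 (-2.42 ± 0.197, edgeR adjusted p = 1.7e-05). HLA-E, a nonclassical presenting molecule, had 25.95, 27.4 and 28.6 CPM at day 1 and 69.6, 61.9 and 63.2 CPM with RP22 (1.25 ± 0.0909, edgeR adjusted p = 1e-05), although HLA genes are alike and reads may be divided between them. The light chain B2M had 78.2, 85.3 and 79.8 CPM at day 1 and 149.7, 95.7 and 104 CPM with RP22, highest in replicate 1 (0.52 ± 0.165, edgeR adjusted p = 0.022), and its call ended without day 1 replicate 1 (0.081) or 3 (0.076). TAPBP, which loads peptides, had 34.2, 35.4 and 39.5 CPM at day 1 and 99.5, 84.5 and 86.4 CPM with RP22 (1.31 ± 0.1001, edgeR adjusted p = 1.3e-05).

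Of 14 immediate early and hypoxia genes tested 6 rose and 4 fell, shares near the 36.6% and 35.2% of all genes tested, and 7 and 3 did without RP22 replicate 1. Over all single libraries left out, 4 to 7 rose and 3 to 4 fell. EGLN3, an oxygen-sensing hydroxylase that hypoxia induces, had 43.5, 53.7 and 56.5 CPM at day 1 and 8.35, 7.85 and 8.50 CPM with RP22 (-2.63 ± 0.133, edgeR adjusted p = 2e-06), and the peptide hormone gene ADM 66.8, 82.5 and 77.5 and 13.99, 19.2 and 13.3 CPM (-2.29 ± 0.157, edgeR adjusted p = 7.5e-06). NDRG1, another gene that hypoxia induces, moved the other way, with 3.13, 4.90 and 4.46 CPM at day 1 and 54.5, 24.7 and 27.3 CPM with RP22 (3.09 ± 0.375, edgeR adjusted p = 0.00029). The transcription factor JUNB rose from 3.75, 3.38 and 3.23 CPM to 38.8, 31.4 and 29.4 CPM (3.26 ± 0.166, edgeR adjusted p = 2.1e-06).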
